A study of Rattus norvegicus with 8 samples.

Results

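The lysosome is the acidic compartment in which cells break down proteins, lipids and sugars. Its cathepsins cut proteins, most of them as cysteine proteases (Ctsb, Ctsc, Ctsh, Ctsk, Ctss and Ctsz) and cathepsin D (Ctsd) as an aspartic protease. Legumain (Lgmn) cuts after asparagine and helps to mature other lysosomal proteases, and Lamp1 and Lamp2 are the heavily glycosylated proteins that line the lysosomal membrane. In the retina, lysosomes are busy in the pigment epithelium, which digests shed photoreceptor tips, and in microglia and macrophages, where Ctss also trims the invariant chain of MHC class II molecules. These 10 genes were picked by gene name among the spots that are not controls, out of 26334 names on the array. All 10 were found, each by 1 probe printed as 1 spot, and all 10 passed the filter on dim and flawed spots, which 16307 genes passed.

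Retinas came from female Lister Hooded rats, whose age is labeled as 8 weeks, 4 with a sham procedure (CTR) and 4 with optic nerve crush (ONC), and were taken 2 weeks after surgery. In the ONC group, forceps were closed for 10 s on the right optic nerve, at a distance of 3 mm behind the disc, a lesion of the axons of retinal ganglion cells (RGCs). In the CTR group, the nerve was exposed in the same way and the forceps were not closed. Each retina was profiled alone, in a single color channel of 4 arrays, so whole tissue was measured, and fewer cells of a type cannot be told apart from less RNA per cell. The deposited labels put a CTR and an ONC retina with equal numbers on every array, using Cy5 for the former and Cy3 for the latter throughout, so dye and condition cannot be told apart under them. The methods give another layout, with retinas of the same group on an array, and match the labels in dye for CTR2, CTR4, ONC1 and ONC3 only. Among the photoreceptor genes that mark retina, Gnat2, the transducin subunit of cones, was far above the median spot in every channel, lying between 3.63 and 4.47 on the log2 scale on which that median is 0.

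The RGC markers go against the labels of most channels. The median over 16 markers, each less its mean over the 8 channels, was -0.97 (CTR1), 0.72 (CTR2), -0.81 (CTR3) and -0.57 (CTR4) with the sham label and 0.82 (ONC1), 0.91 (ONC2), 0.88 (ONC3) and -0.99 (ONC4) with the crush label. High values thus lay in ONC1, ONC2, ONC3 and CTR2, and low ones in the other channels. Since RGCs are lost after their axons are crushed, low markers belong with the crush label, so CTR1, CTR3, CTR4, ONC1, ONC2 and ONC3 go against their labels, and CTR2 and ONC4, which stand apart from the rest of their groups, do not. Between labels 16 of 16 markers were higher in ONC, at a median difference of 0.85, with 0 called by limma and 2 at an unadjusted p under 0.05. Without CTR2 and ONC4 that median was 1.47, and 16 of 16 were called. The markers come from a list of the study drawn up on these arrays, and both channels were left out for the values of these markers. The 16 calls therefore follow from those choices and test nothing. This setting compares only channels whose markers go against their labels. A direction given here for ONC against CTR is therefore one between labels, and the differences of the members are given with and without CTR2 and ONC4, which does not settle which labels are right.

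Cathepsin H (Ctsh), an aminopeptidase, was the member that differed most between the labels. Its probe, shown because the clearest difference rests on it alone, covers 60 bases of transcript that in the rn4 genome build of the array design lie within chr8:94986941-94989247 on the plus strand, a span of 2307 bases that holds at least 1 intron.
Ctsh probe: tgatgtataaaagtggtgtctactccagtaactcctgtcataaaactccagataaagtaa
The log2 level of Ctsh was 1.76 (CTR1), 1.38 (CTR2), 1.80 (CTR3) and 1.92 (CTR4) under the sham label and 1.0 (ONC1), 1.25 (ONC2), 1.0 (ONC3) and 1.23 (ONC4) under the crush label. Every ONC channel was below every CTR channel, with CTR2 the lowest CTR channel and close to ONC2 and ONC4. The mean was 1.71 ± 0.23 (SD, n = 4) in CTR and 1.12 ± 0.14 (SD, n = 4) in ONC, a difference of -0.59 (95% interval -0.88 to -0.30), or 0.664-fold. The moderated test of limma gave an adjusted p of 0.0713 over all genes, short of the threshold of 0.05. With the array as a block it was 0.0455 (lower in ONC on 4 of 4 arrays), and without CTR2 and ONC4 the difference was -0.74 with an adjusted p of 0.0316. Over all alternatives, the adjusted p of Ctsh ranged from 0.0158 to 0.394.

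Cathepsin S (Ctss), an enzyme of antigen-presenting cells that stays active at neutral pH, had the next largest difference. Its probe, given as the other of the pair of proteases with the largest differences, lies at chr2:190466474-190466533 (rn4, plus strand).
Ctss probe: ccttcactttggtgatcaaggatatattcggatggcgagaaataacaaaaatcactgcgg
The log2 level of Ctss was 2.44 (CTR1), 1.87 (CTR2), 2.66 (CTR3) and 2.88 (CTR4) under the sham label and 1.91 (ONC1), 2.13 (ONC2), 1.88 (ONC3) and 2.16 (ONC4) under the crush label. The groups overlapped through CTR2 alone, which was the lowest of the 8 channels. The difference was -0.44 (95% interval -0.89 to 0.005, adjusted p = 0.274 by limma). Without CTR2 and ONC4 it was -0.69, with an adjusted p of 0.0529, and no ONC channel then reached a CTR channel. It ran from -0.64 to -0.30 with a channel left out.

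**Figure D1:**
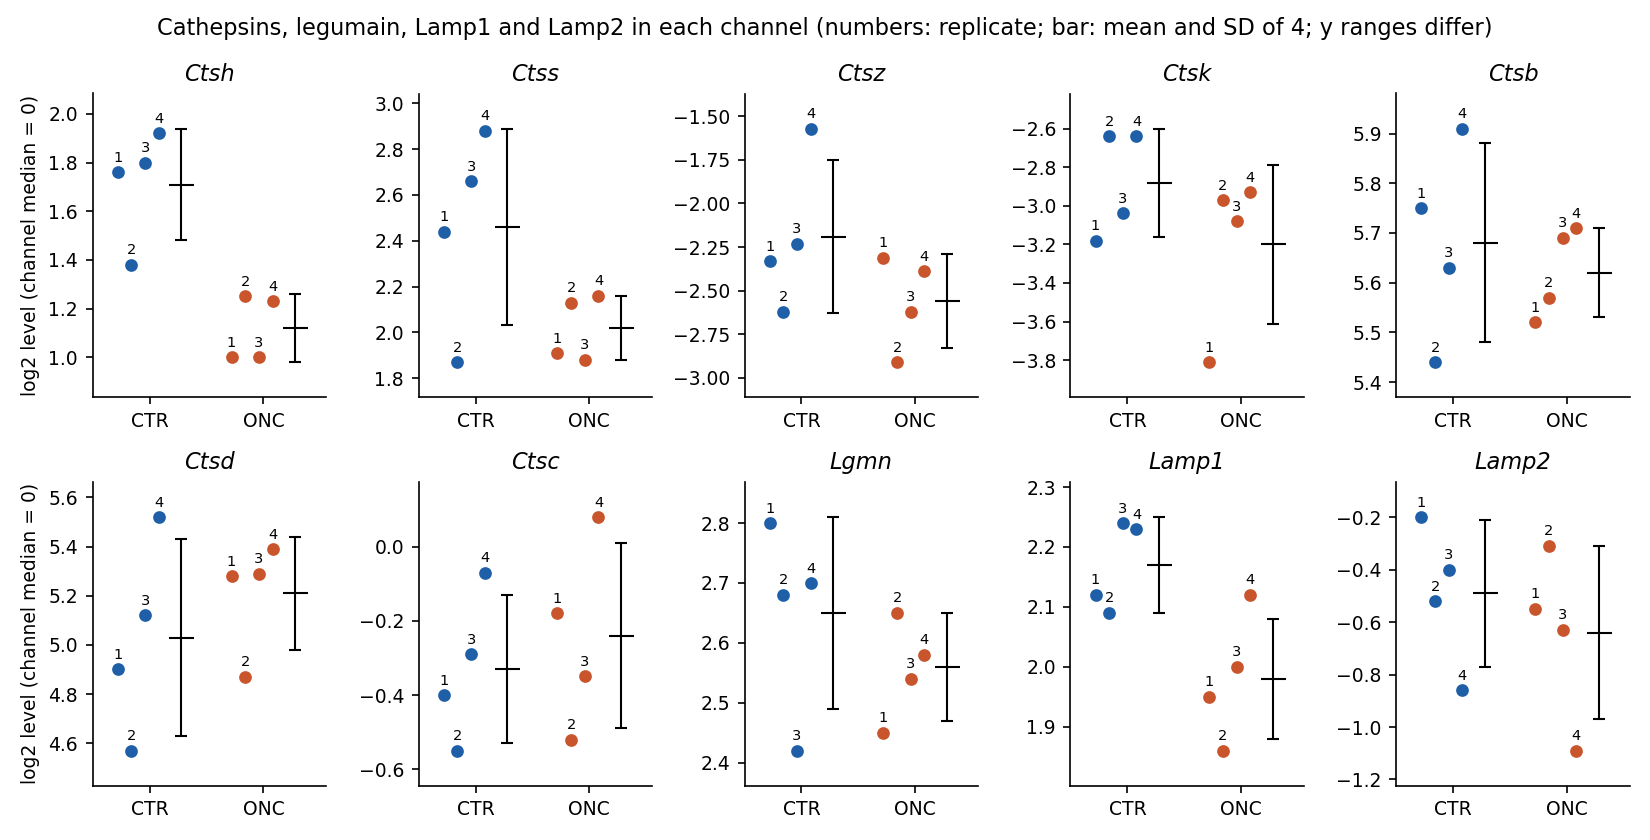
Log2 level of each gene in the 4 CTR and 4 ONC channels (y axis, median spot of the channel at 0; numbers are replicates), with mean and SD beside the points. For Ctsh all ONC points lie below the CTR points, from 1.0 to 1.25 against 1.38 to 1.92, and the groups overlap for the other genes.

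The spots of cathepsins Z and K were nearer to their background. Ctsz, a carboxypeptidase, was 4.83 to 8.47 times as bright as the local background, and Ctsk, known best as the collagen-cutting protease of osteoclasts, 3.07 to 9.50 times. The log2 level of Ctsz was -2.33 (CTR1), -2.62 (CTR2), -2.23 (CTR3) and -1.57 (CTR4) under the sham label and -2.31 (ONC1), -2.91 (ONC2), -2.62 (ONC3) and -2.39 (ONC4) under the crush label. CTR4 stood highest and ONC2 lowest, a range of 1.34 that was the widest among the members, and the groups overlapped. Ctsk was at -3.18 (CTR1), -2.64 (CTR2), -3.04 (CTR3) and -2.64 (CTR4) under the sham label and -3.81 (ONC1), -2.97 (ONC2), -3.08 (ONC3) and -2.93 (ONC4) under the crush label. Here ONC1 was the low channel and CTR1 and CTR3 fell among the ONC channels. The difference was -0.37 for Ctsz (adjusted p = 0.417 by limma) and -0.32 for Ctsk (adjusted p = 0.464), and without CTR2 and ONC4 they were -0.57 and -0.33. That of Ctsz ran from -0.51 (without CTR2) to -0.16 (without CTR4) with a channel left out, and was -0.13 when the channels were scaled to their medians without loess and -0.55 with the processed signal of the scanner software. That of Ctsk ran from -0.43 (without CTR1) to -0.12 (without ONC1). It was 0.14, a change of sign, without loess, and -0.81 in CTR2, CTR4, ONC1 and ONC3 alone (unadjusted p = 0.0322, adjusted p = 0.395).

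Ctsb and Ctsd were the brightest of the members. Ctsb, a protease of broad specificity, was at 5.75 (CTR1), 5.44 (CTR2), 5.63 (CTR3) and 5.91 (CTR4) under the sham label and 5.52 (ONC1), 5.57 (ONC2), 5.69 (ONC3) and 5.71 (ONC4) under the crush label. Its ONC channels lay inside the range of its CTR channels, whose lowest and highest were CTR2 and CTR4. Ctsd was at 4.90 (CTR1), 4.57 (CTR2), 5.12 (CTR3) and 5.52 (CTR4) under the sham label and 5.28 (ONC1), 4.87 (ONC2), 5.29 (ONC3) and 5.39 (ONC4) under the crush label. Again CTR2 was the lowest channel and CTR4 the highest. The difference was -0.06 (95% interval -0.31 to 0.19) for Ctsb and 0.18 (-0.27 to 0.63) for Ctsd. That of Ctsd was -0.03 without CTR2 and ONC4 and -0.05 without loess, and 0.03 to 0.34 with a channel left out, so it has no settled direction, and that of Ctsb was 0.02 without CTR4, -0.17 without CTR2 and ONC4, and -0.35 without loess (adjusted p = 0.0554).

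Ctsc, also called dipeptidyl peptidase I, activates the serine proteases of granulocytes and mast cells. Its log2 level was -0.40 (CTR1), -0.55 (CTR2), -0.29 (CTR3) and -0.07 (CTR4) under the sham label and -0.18 (ONC1), -0.52 (ONC2), -0.35 (ONC3) and 0.08 (ONC4) under the crush label. Replicate 2 was the lowest and replicate 4 the highest in either group. The difference was 0.08 (95% interval -0.25 to 0.42), and -0.10 without CTR2 and ONC4. Lgmn was at 2.80 (CTR1), 2.68 (CTR2), 2.42 (CTR3) and 2.70 (CTR4) under the sham label and 2.45 (ONC1), 2.65 (ONC2), 2.54 (ONC3) and 2.58 (ONC4) under the crush label. It spread over 0.38 across the 8 channels, CTR3 and CTR1 being the extremes, with a difference of -0.09 (-0.32 to 0.13), which was also -0.09 without CTR2 and ONC4, from -0.17 (without CTR3) to -0.04 (without CTR1) with a channel left out, and -0.20 in CTR2, CTR4, ONC1 and ONC3 alone.

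The membrane proteins Lamp1 and Lamp2 differed in how evenly they were measured. Lamp1 was at 2.12 (CTR1), 2.09 (CTR2), 2.24 (CTR3) and 2.23 (CTR4) under the sham label and 1.95 (ONC1), 1.86 (ONC2), 2.0 (ONC3) and 2.12 (ONC4) under the crush label. It was lower in ONC on 4 of 4 arrays by 0.11 to 0.24, and ONC4 alone overlapped the CTR channels. The difference of -0.19 (95% interval -0.38 to 0.01) had an adjusted p of 0.288 by limma, and it was -0.26 without CTR2 and ONC4 (adjusted p = 0.152). Lamp2, which also serves as the receptor of chaperone-mediated autophagy in its A isoform, was at -0.20 (CTR1), -0.52 (CTR2), -0.40 (CTR3) and -0.86 (CTR4) under the sham label and -0.55 (ONC1), -0.31 (ONC2), -0.63 (ONC3) and -1.09 (ONC4) under the crush label. Array 4 held the lowest channel of either group, and the difference of -0.15 (-0.57 to 0.27) changed to -0.01 without CTR2 and ONC4 and to 0.10 in the 4 channels whose dye both sources give alike, and ran from -0.27 to -0.0021 with a channel left out.

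Over the 10 genes, 8 were lower and 2 (Ctsc and Ctsd) higher in ONC, against 52.6% of all genes lower, and the median difference was -0.17, against -0.01 over all genes. After adjustment limma called 0 of 10 members, with 0.497% of all genes called, and 1 of 10 (Ctsh) had an unadjusted p under 0.05 in the lower direction, with 9.85% of all genes. The fit with arrays as blocks called 1 of 10 (Ctsh), beside 7.69% of all genes called in either direction and 4.61% called as lower. Unadjusted and in either direction, 5 of 10 had p under 0.05 in that fit, beside 5097 of 16307 genes. These counts were 4 and 3888 by limma without CTR2 and ONC4, and 4 and 5767 without loess. Groups did not overlap for 1 of 10 (Ctsh, lower in ONC), against 6.92% of all genes, and 3 of 10 (Ctsh, Ctsk and Lamp1) were lower in ONC on 4 of 4 arrays, against 21.2%. Without CTR2 and ONC4, 10 of 10 were lower, beside 60.2% of all genes, with a median of -0.21 and an all-gene median of -0.06. In those channels limma called 1 of 10 (Ctsh), with 2.54% of all genes called in either direction and 1.19% called as lower. Groups did not overlap there for 3 of 10 (Ctsh, Ctss and Lamp1), against 20.0% of all genes. Without loess 8 of 10 were lower, Ctsk and Ctsc being the higher ones, against 40.6% of all genes. Limma then called 1 of 10 (Ctsh), beside 19.6% of all genes called in either direction and 5.68% called as lower. The methods' t-test, on linear values at its own threshold, passed 2 members (Ctsh and Lamp1), with 16.4% of all genes, and 0 after Benjamini-Hochberg adjustment; the fold criterion that the methods join to it was not applied. Where limma called a member it was Ctsh. In the lower direction, 1 gene of 10 lies near the share of all genes for the unadjusted and the no-overlap rule. Without loess, 1 of 10 lies below the share of all genes called in either direction.

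**Figure D2:**
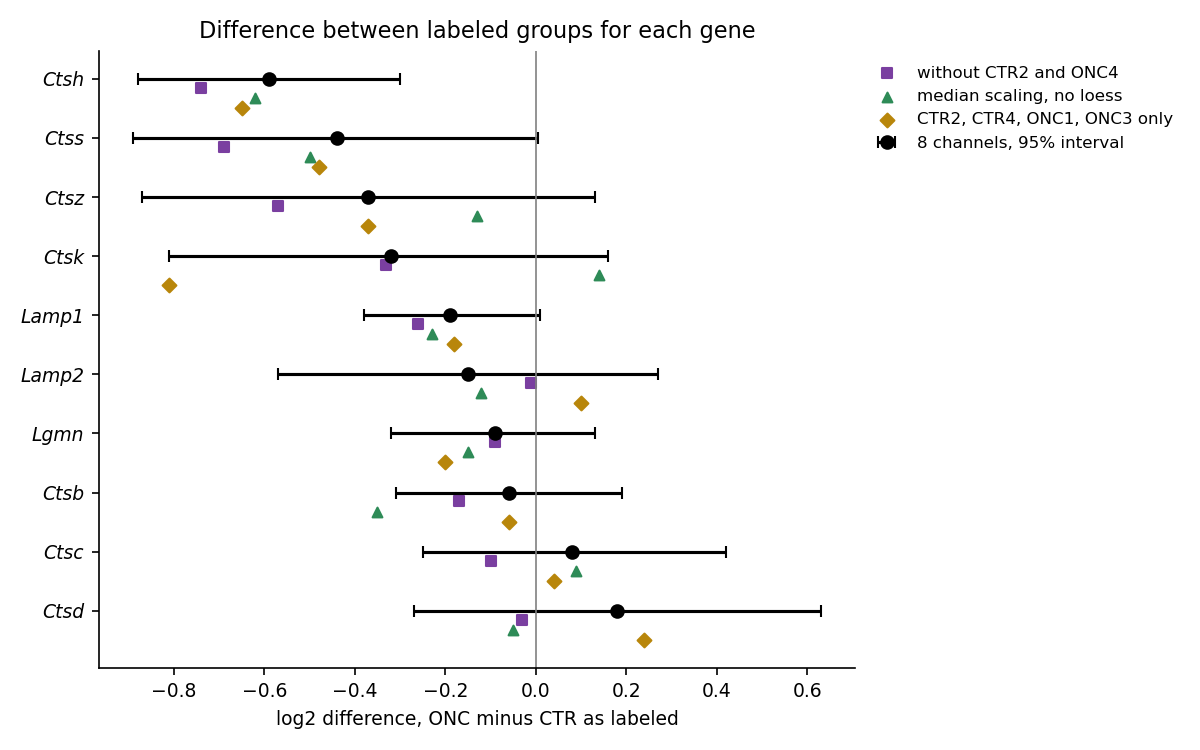
Log2 difference between ONC and CTR as labeled (x axis) for each gene, with the 95% interval of the limma estimate over 8 channels and the values under 3 alternative settings. The interval of Ctsh runs from -0.88 to -0.30, and the intervals of the other genes reach 0 or beyond.

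The median of the members in each channel is set beside those of cell type markers. The median of the 10 genes, each less its mean over the channels, was 0.07 (CTR1), -0.13 (CTR2), 0.07 (CTR3) and 0.33 (CTR4) with the sham label and -0.13 (ONC1), -0.14 (ONC2), -0.06 (ONC3) and 0.01 (ONC4) with the crush label. CTR2 was thus as low as ONC1 and ONC2, and CTR4 was the high channel. Single members departed from this, with Ctsk at 0.40 in CTR2 and -0.77 in ONC1, Lamp2 at -0.29 in CTR4 and 0.26 in ONC2, Ctsd at 0.16 in ONC1 and Lgmn at -0.18 in CTR3. The median of 18 microglia and macrophage markers was 0.20 (CTR1), -0.39 (CTR2), 0.49 (CTR3) and 0.53 (CTR4) with the sham label and -0.31 (ONC1), -0.12 (ONC2), -0.33 (ONC3) and -0.02 (ONC4) with the crush label. They were low in CTR2 and in ONC1 to ONC3 and high in CTR3 and CTR4, the channels in which Ctss was low and high. Summed on a linear scale, where the median spot of a channel is 1, these markers gave 22.9, 18.3, 36.2 and 36.3 over CTR1 to CTR4 and 17.3, 22.6, 18.8 and 23.4 over ONC1 to ONC4. C1qb was the brightest by its mean over the channels, though below Laptm5 in CTR1, ONC1 and ONC4. Among the 20 markers listed, Spi1 and Irf8 did not pass the spot filter.

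Of the 18 microglia and macrophage markers, 17 were lower in ONC with a median difference of -0.34, and limma called 0, with 5 (4 lower and 1 higher) at an unadjusted p under 0.05, beside 18.6% of all genes in either direction. Of 6 MHC class II genes, 6 were lower, with a median of -0.35, and limma called 0, with 1 at an unadjusted p under 0.05. Their channel medians were 0.19, -0.63, 0.80 and 0.38 over CTR1 to CTR4 and -0.24, -0.41, -0.30 and 0.25 over ONC1 to ONC4, and their sums 3.37, 1.18, 5.43 and 3.29 for the CTR channels and 1.67, 1.77, 1.73 and 3.44 for the ONC channels. Cd74 was the brightest by its mean over the channels, though not in CTR2, and RT1-Ba did not pass the filter. Müller glia markers were lower in ONC for 8 of 10, at a median of -0.28, with 0 called by limma and 3 at an unadjusted p under 0.05. They had channel medians of 0.08, -0.12, 0.25 and 0.28 in CTR and -0.16, -0.32, -0.12 and 0.02 in ONC. Summed, they gave 340, 271, 358 and 323 for CTR1 to CTR4 and 273, 238, 281 and 306 for ONC1 to ONC4, with Dkk3 brightest and Kcnj10 not passing the filter. Without CTR2 and ONC4 the median difference was -0.54 for the microglia and macrophage markers (4 of 18 called by limma), -0.74 for the MHC class II genes (2 of 6) and -0.40 for the Müller glia markers (2 of 10), with 2.54% of all genes called. The block gave 1 call of 18, 1 of 6 and 3 of 10 for these lists, beside 7.69% of all genes. Without loess 13 of 18, 4 of 6 and 9 of 10 were lower, at medians of -0.33, -0.06 and -0.47. Lens markers stood out in CTR2, with a channel median of 1.22 there and between -0.64 and 0.35 elsewhere. The part of these cell types in the levels of the members was not tested.

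**Figure D3:**
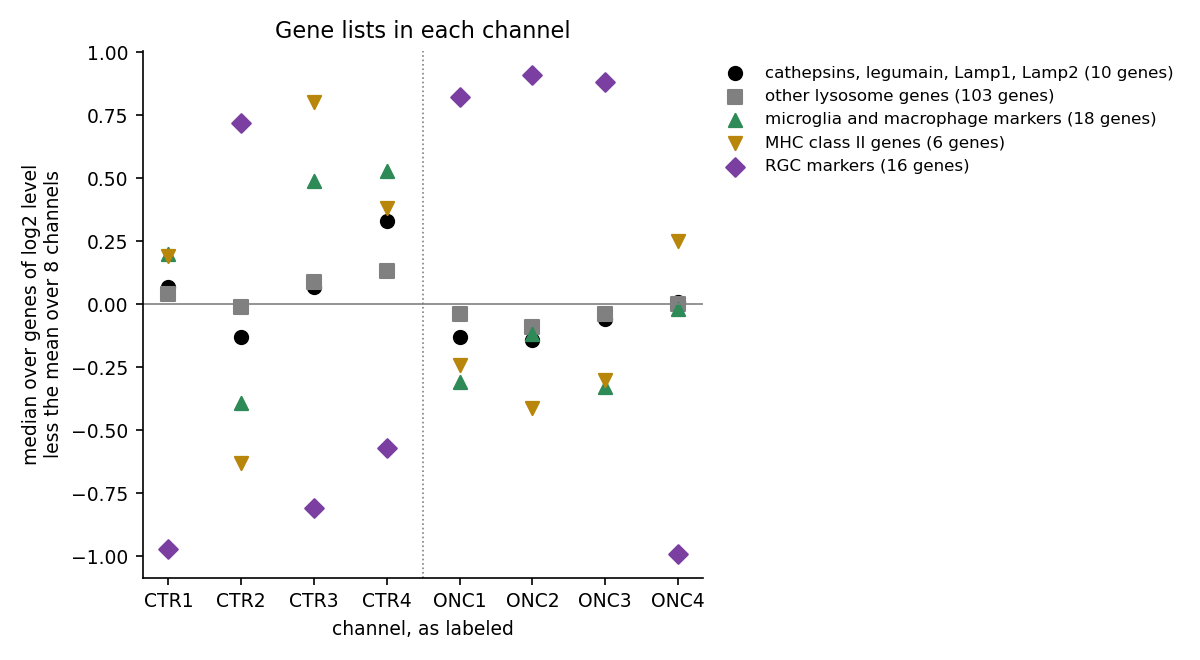
Median of each gene list in each channel (y axis, log2 level less the mean of the gene over 8 channels; x axis, channel as labeled). The cathepsin, legumain and Lamp genes run from -0.14 to 0.33, low in CTR2 and ONC1 to ONC3 as the microglia and macrophage markers are, while RGC markers are high in those 4 channels.

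By the smallest root mean square difference of centered log2 levels over the 8 channels, the profiles nearest to that of Ctss among all genes tested were RT1-A2 (0.064), an MHC class I gene, C1r (0.065), a protease of the complement cascade, and Sdr16c5 (0.071), a short-chain dehydrogenase. The median over all genes was 0.37. In RT1-A2 the centered level was -0.35 in CTR2 and 0.66 in CTR4, with all ONC channels between -0.35 and -0.05. Nearest to Ctsz were Apcdd1 (0.076), Pcolce (0.094) and Rela (0.110), against a median of 0.38, and these share its high value in CTR4, between 0.64 and 0.82. Nearest to Ctsk were Trmt5 (0.131), Gnat2 (0.135) and Nob1 (0.143), against a median of 0.40, all of them low in ONC1, between -0.71 and -0.57.

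Spread within a group was described by the relative expression variability (REV) of the methods, which scales the coefficient of variation of the linear values by a chi-squared interval. Its median over the members was 35.9% in CTR and 26.7% in ONC, against 27.7% and 24.0% over the 13313 genes with 1 kept spot. REV was lower in ONC than in CTR for 6 of 10 members (Ctsb, Ctsd, Ctsh, Ctss, Ctsz and Lgmn), against 58.5% of all genes. Ctss had REV of 59.2% in CTR and 21.3% in ONC, Ctsz 71.1% and 38.4%, and Ctsd 59.8% and 32.1%. For each of these genes CTR2 was the lowest of the CTR channels and CTR4 the highest. By the RGC markers, CTR2 and ONC4 stood apart from the rest of their groups, so these values describe groups as labeled. The part of single channels in them was not tested. Lamp1 was the steadiest member in CTR at 11.4%, with 15.7% in ONC, and Ctsk had 40.8% and 53.1%. In the percentile order of the methods (GES), which starts from the most variable gene, Ctsz was at 3.54 in CTR and 20.4 in ONC, and Lamp1 at 89.6 and 67.9. No member was below 10% in either group. With a channel left out, which widens this interval estimate by construction, the median of the members ranged over 45.8% to 65.5% among CTR channels and 33.7% to 47.1% among ONC channels.

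Many lysosomal genes carry in their promoters the palindrome CACGTG, the core of the element that the regulator Tfeb binds. RefSeq promoters (build GRCr8, 250 bases before to 50 after the start of the gene) were at hand for 9 of 10 members, and CACGTG, which reads the same on both strands, was present in 2 of them, Ctsd and Lamp1. It was present in 6.42% of 33469 promoters of the same length and in 18 of the 100 of other lysosome genes. Lamp1 holds it 5 times, more often than any other promoter in the table, starting 183, 167, 150, 65 and 38 bases before the gene start. Ctsd holds it 2 times, starting 157 and 10 bases before, and 0.52% of all promoters hold it 2 or more times. The 250 bases before the start are shown for both, with each CACGTG in capitals, for Ctsd at chr1:206968822-206969071 and for Lamp1 at chr16:83075064-83075313, both on the minus strand of GRCr8.
Ctsd promoter: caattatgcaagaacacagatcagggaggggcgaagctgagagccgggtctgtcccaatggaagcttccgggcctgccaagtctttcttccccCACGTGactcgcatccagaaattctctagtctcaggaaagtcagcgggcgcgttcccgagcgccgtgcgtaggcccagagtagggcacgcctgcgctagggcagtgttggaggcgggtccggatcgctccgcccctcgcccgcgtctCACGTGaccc
Lamp1 promoter: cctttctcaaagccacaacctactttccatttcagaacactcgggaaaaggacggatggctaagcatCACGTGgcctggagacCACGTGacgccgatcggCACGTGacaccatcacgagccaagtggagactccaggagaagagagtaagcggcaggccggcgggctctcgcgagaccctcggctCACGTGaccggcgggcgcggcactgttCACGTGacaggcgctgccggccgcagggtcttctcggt
The match is a description of these letters and not of a bound site. As given above, Ctsd and Lamp1 differed from each other in direction between the labels, at 0.18 and -0.19, the first of which changed sign without loess and without CTR2 and ONC4.

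Among 122 other lysosome genes listed by role, 103 passed the spot filter, of which 69 were lower and 34 higher in ONC, at a median of -0.11. Limma called 1 of them after adjustment, Atp6ap1, an accessory subunit of the proton pump that acidifies the lysosome. It was at 4.91 (CTR1), 4.76 (CTR2), 4.84 (CTR3) and 4.79 (CTR4) under the sham label and 5.51 (ONC1), 5.33 (ONC2), 5.47 (ONC3) and 5.40 (ONC4) under the crush label. All ONC channels, in Cy3 under the labels, were above all CTR channels, in Cy5, with CTR2 and ONC4 included. The difference was 0.60 (standard error 0.08, adjusted p = 0.0418 by limma), 0.57 to 0.64 with a channel left out and 0.37 without loess. It cannot be told apart from a difference between the dyes. Without each of the channels in turn, ONC2 excepted, this call was lost, and the adjusted p ranged from 0.0180 to 0.384 over all alternatives. Unadjusted, 26 of the 103 had p under 0.05, beside 18.6% of all genes. With the array as a block 14 of the 103 were called, 13 lower and 1 higher, beside 7.69% of all genes called in either direction. When CTR2 and ONC4 were left out, 73 of the 103 were lower, against 60.2% of all genes, at a median of -0.15, and 7 were called, with 2.54% of all genes. Without loess 66 were lower, against 40.6%, and 14 were called, with 19.6% of all genes.

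Of the 7 other lysosomal proteases measured, 5 were lower in ONC, against 52.6% of all genes, and limma called 0. At an unadjusted p under 0.05 there were 2, beside 18.6% of all genes, and the block called 1, beside 7.69% of all genes. This was Ctse, an aspartic protease, at -0.78 (block adjusted p = 0.0334), which was -1.05 without CTR2 and ONC4 (adjusted p = 0.00601) and -0.36 without loess (adjusted p = 0.218). Its mean log2 level was low, at -2.58 in CTR and -3.36 in ONC. With the normexp background the difference of Ctse was -0.53 (adjusted p = 0.301 by limma). The highest of the 7 was Ctsa at 0.12, which became 0.07 without CTR3 and -0.03 without loess. Of 4 protease inhibitors 3 were higher and 1 lower, and limma called 0. The lower one, and the only one with an unadjusted p under 0.05, was Cst3, the secreted inhibitor cystatin C, at -0.33 (adjusted p = 0.265). Its difference was -0.79 without loess, where it was called (adjusted p = 0.0113), and -0.14 in CTR2, CTR4, ONC1 and ONC3 alone. The highest was Cst6 at 0.26 (adjusted p = 0.523), from 0.17 (without CTR4) to 0.44 (without ONC4) with a channel left out. Without CTR2 and ONC4 it was 0.56 and called (adjusted p = 0.0454), a setting in which 2 of the 4 were lower.

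Of 33 soluble hydrolases and activators, 27 were lower, against 52.6% of all genes, at a median of -0.13. Limma called 0 of them. At an unadjusted p under 0.05 there were 7, beside 18.6% of all genes, and the block called 4, beside 7.69% of all genes. The 4 were Npc2, which hands cholesterol to the membrane, at -0.65 (block adjusted p = 0.0290), Hexa, the alpha subunit of hexosaminidase, at -0.55 (0.0327), the acid phosphatase Acp2 at -0.46 (0.0341) and Nagpa at -0.37 (0.0340). Nagpa, an enzyme of the mannose 6-phosphate tag, was counted in this list though it is not a soluble hydrolase of the lysosome. The 4 were at -0.83, -0.68, -0.59 and -0.43 when CTR2 and ONC4 were left out, where limma called Npc2 and Acp2 among them, and without loess Nagpa was at -0.07 (adjusted p = 0.632). Npc2 was at 0.90, 0.79, 1.21 and 1.45 over CTR1 to CTR4 and at 0.35, 0.33, 0.38 and 0.67 over ONC1 to ONC4, without overlap. The highest of this list was Manba at 0.20, which was -0.0018 with the processed signal of the scanner software. It ran from 0.12 (without CTR2) to 0.33 (without CTR4) with a channel left out.

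Of 24 other lysosomal membrane proteins, 18 were lower, against 52.6% of all genes, at a median of -0.13. Limma called 0 of them. At an unadjusted p under 0.05 there were 7, beside 18.6% of all genes, and the block called 4, beside 7.69% of all genes. These were Lamp5, a relative of Lamp1, at -0.45 (block adjusted p = 0.0304), Laptm4a at -0.51 (0.0296; -0.29 with the processed signal), Gpnmb, a glycoprotein of pigment cells and macrophages, at -0.57 (0.0285), and Cd63 at -0.40 (0.0435). Their values when CTR2 and ONC4 were left out were -0.50, -0.47, -0.85 and -0.63, the last of which was called. Lamp5 was at 0.51, 0.52, 0.60 and 0.76 over CTR1 to CTR4 and at 0.18, 0.04, 0.15 and 0.22 over ONC1 to ONC4, so its groups did not overlap and CTR2 was not apart from the other CTR channels. Litaf had the lowest value of the list at -0.79 (adjusted p = 0.310), which shrank to -0.49 without CTR3 and to -0.0039 in CTR2, CTR4, ONC1 and ONC3 alone, and Cln3 the highest at 0.46 (adjusted p = 0.149), which was 0.89 and called without loess (adjusted p = 0.0134). Cd68 and Laptm5 of this list are also among the microglia and macrophage markers.

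Proton pump subunits had no common direction. Of 20, 11 were higher and 9 lower, against 52.6% of all genes lower, and 12 were lower without loess, against 40.6%. Besides Atp6ap1, the block gave calls for Atp6v0d1 at -0.45 (block adjusted p = 0.0305) and Atp6v1f at -0.31 (0.0498), and the lowest was Atp6v1g2 at -0.47 (adjusted p = 0.462), averaged over 2 probes, which was -0.11 without ONC3 and -0.83 in CTR2, CTR4, ONC1 and ONC3 alone. Atp6v0d1 was at -0.41 and Atp6v1f at -0.31 without CTR2 and ONC4, and Atp6v0d1 was at -0.26 with the processed signal. Of 15 genes for enzyme sorting and lysosomal gene regulation, 9 were lower, against 52.6% of all genes, and limma called 0. At an unadjusted p under 0.05 there were 3, beside 18.6% of all genes. The block called 2, beside 7.69% of all genes, Gnptg at -0.42 (block adjusted p = 0.0329) and Gga3 at -0.42 (0.0340). They were -0.43 and -0.36 without CTR2 and ONC4 and -0.26 and -0.23 with the processed signal. The highest of the 15 was Igf2r, the large mannose 6-phosphate receptor, at 0.17 (adjusted p = 0.461), which was 0.08 without CTR3 and 0.04 with the processed signal.

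**Figure D4:**
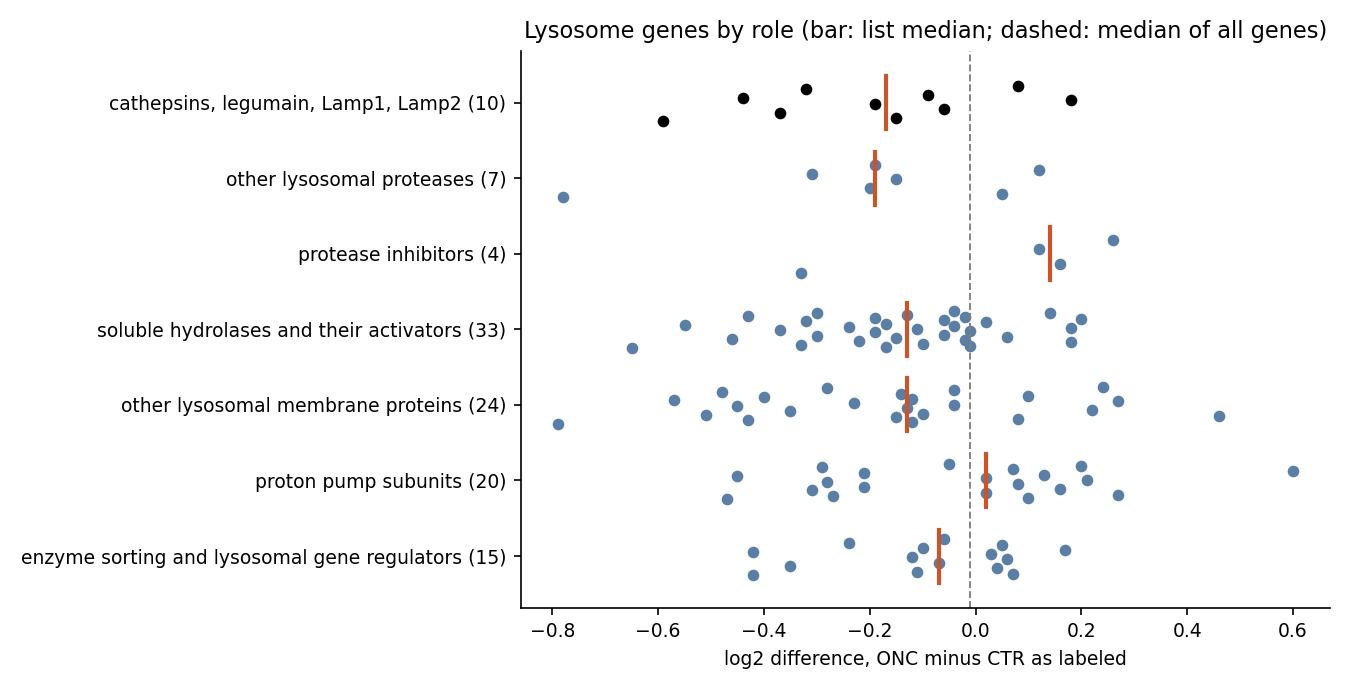
Log2 difference between ONC and CTR as labeled (x axis) for each lysosome gene that passed the spot filter, by role (y axis, number of genes in brackets), with the median of each list and, dashed, the median of all genes. Medians run from -0.19 for the other proteases to 0.14 for the 4 inhibitors, and the median of all genes is -0.01.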

How the data were processed

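RNA of 8 rat retinas, 4 CTR and 4 ONC, was hybridized to 4 Agilent 4x44k arrays. The authors deposited intensity values of each spot as written by the scanner software (Agilent Feature Extraction, version 12.0.3.1 per the file headers and 11.1.19.1 per the submitters' processing notes). The mean foreground and median local background were used, and the software's processed signal served as an alternative. The group of a channel was taken from its label.

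Control spots, spots with an outlier flag and spots under 2 times the background in any channel were left out, which kept 27371 spots of 18599 probes. Background was subtracted, arrays were normalized by loess, channels were centered on their medians, and spots and probes of a gene were averaged as log2 values. The two-sided moderated test of limma (version 3.58.1, R 4.3.3) compared the groups, with Benjamini-Hochberg adjustment over 16307 genes. A trial of the fit on simulated data used independent channels without array or dye effects, so it says nothing about those effects here. Other values came from Python 3.11.15 with pandas 2.3.3 and scipy 1.17.1. The number of arrays limits precision. The p-values set a difference between labels against the spread between the channels of a label. Without the array block, that spread also holds differences between arrays. It includes CTR2 and ONC4, which stand apart from their groups by the RGC markers.

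CTR and ONC channels of the same number share an array under the labels, and their deviations from the group means correlated over genes (0.149, 0.549, 0.401 and 0.487 on arrays 1 to 4), so the array was used as a block in an alternative fit. The members and lists were chosen with earlier results of these data known, and no test was run over a list. Genes were picked for their values by a rule. They are the 10 members, the highest and lowest of each lysosome list, those of the lists called with or without the block, and the 3 nearest profiles of the 3 members with the widest range. Other genes are named only as markers, as the brightest of a marker list, as not passing the filter or as shared by lists. Probe positions are those of the files, and promoters came from RefSeq.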

Additional observations from a re-analysis of the deposited data

Results flagged for a closer look

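In 82 groups of 4 channels, over the genes picked by the rule given above, 9 held a channel whose gap to its nearest neighbor, as a share of the range of the group, exceeded the 95% critical value of Dixon, which chance passes in about 1 of 20 groups. Many of these genes were picked for their differences or for a profile near that of a member, so the count cannot be set against that rate. None of the 10 members was among them. The lower channel stood apart for Ctse in CTR2 (-3.21, others -2.43 to -2.30), Cst6 in ONC4 (-0.08, others 0.63 to 0.68), Manba in ONC2 (0.01, others 0.38 to 0.42) and Nagpa in ONC2 (-2.84, others -2.69 to -2.66). The same held for Atp6v1g2 in ONC3 (-0.78, others 0.57 to 0.80), whose log2 difference was -0.47 with that channel in place and -0.11 at its smallest when a channel was left out. Npc2 was high in ONC4 (0.67, others 0.33 to 0.38). Of the genes with profiles near that of Ctsk, Gnat2 was low in CTR1 (4.04, others 4.41 to 4.47), and Nob1 was low in CTR1 (0.12, others 0.55 to 0.63) and in ONC1 (-0.23, others 0.41 to 0.50).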

How the results depend on the processing

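Across 190 refits of single members, 180 kept their direction and their side of the threshold, 3 brought Ctsh past it (array block, no loess, and without CTR2 and ONC4), and 7 changed sign, none of them past the threshold. The sign changes were Ctsb to 0.02 without CTR4 (-0.14 to 0.02 over channels left out in turn), Ctsc to -0.02 without ONC4 (-0.02 to 0.17) and -0.10 without CTR2 and ONC4, Ctsd to -0.03 without CTR2 and ONC4 and -0.05 without loess, Ctsk to 0.14 without loess, and Lamp2 to 0.10 in CTR2, CTR4, ONC1 and ONC3 alone. Ctsa turned to -0.03 without loess and Manba to -0.0018 with the processed signal. The median of the members stayed between -0.23 and -0.13 in all settings run.

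Limma called 81 genes in all, 0 members and 1 other lysosome gene. These counts were 1254, 1 and 14 with the array as a block (the pairing by array, which changed the call of no member other than Ctsh), 415, 1 and 7 without CTR2 and ONC4, 3194, 1 and 14 without loess, and 412, 0 and 7 with Aquantile scaling. They were 21, 0 and 1 with the processed signal, 14, 0 and 1 with the normexp background, 123, 0 and 2 for spots well above background, 249, 0 and 3 at 3 times the background, and 124, 0 and 2 with the brightest probe. No gene was called when the filter on dim spots was dropped and the background changed to normexp, whose effects cannot be told apart there (0, 0 and 0, with 1957 genes at an unadjusted p under 0.05), or in CTR2, CTR4, ONC1 and ONC3 alone (0, 0 and 0, with 1961). Leaving out a channel gave 0 to 38 genes (2085 to 3252 unadjusted), 0 members and 0 to 1 other lysosome genes, and calls were made only without ONC2 (38 and 1). The methods' t-test passed 2682 genes and 2 members before adjustment, and 0 and 0 after it. The median REV of the members ran from 45.8% to 65.5% in CTR and from 33.7% to 47.1% in ONC with a channel left out, which lowers the degrees of freedom. The cause of the other changes was not tested.

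Cln3 had no value at the stricter limit of 3 times the background. The spot of Ctsk, at 3.07 times the background in CTR1, was the member nearest to the filter, and its difference was -0.22 with the normexp background. Each member rests on a single probe, and dye and label cannot be told apart.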

Other observations

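The pigment epithelium, whose cells are rich in lysosomes, adheres to the retina and can come along in a dissection. Its markers had channel medians of 0.03, -0.28, -0.43 and 0.24 in CTR1 to CTR4 and of 0.37, -0.60, 0.20 and 0.35 in ONC1 to ONC4, over 7 genes with Ttr the brightest. Their median difference was 0.11, with 6 of 7 higher in ONC and 0 called by limma (1 at an unadjusted p under 0.05). Without CTR2 and ONC4 that median was -0.02. Rod and cone markers were lower in ONC for 9 of 14, at a median of -0.26, with 0 called and 4 at an unadjusted p under 0.05, beside 18.6% of all genes. The block called 3 of them, all lower, beside 7.69% of all genes. Without loess 13 were lower, against 40.6% of all genes, and 5 were called, beside 19.6% of all genes. Vessel markers had a median of -0.05 over 7 genes, and the 3 blood markers measured were all higher in ONC, at a median of 0.22, with 0 called and 0 at an unadjusted p under 0.05 in either list. Lens markers were lower in ONC for 11 of 13, at a median of -0.39, with 0 called and 1 at an unadjusted p under 0.05.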
